A study of Mus musculus with 3 samples.

Results

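The guanylate-binding proteins (GBPs) and immunity-related GTPases (IRGs) are described here through 10 genes, Gbp2, Gbp3, Gbp4, Gbp6, Gbp7, Gbp8, Gbp9, Igtp, Irgm1 and Iigp1, in single-cell RNA libraries of mouse CD4+ T cells. The genes were chosen by name from the 31053 genes of the count tables, and all 10 were found. The cells came from the spleens of C57BL/6 mice, were enriched for naive CD4 T cells, and were sorted as 7AAD-negative, CD3+ and CD4+. There was 1 library for each of 3 conditions. The unstimulated WT library, labelled 0 h, held Ift20 f/f cells kept in DPBS buffer. The stimulated WT library held Ift20 f/f cells cultured for 24 h with anti-CD3 (1 μg/mL) and anti-CD28 (1 μg/mL) antibodies, which engage the T cell receptor and its costimulator. The stimulated IFT20-KO library held cells from Ift20 f/f CD4 cre mice, treated the same way. Both genotypes carry loxP-flanked Ift20 alleles, and in the KO mice Cre is driven by the Cd4 promoter, which is active during T cell development in the thymus and so also in cells that become CD8 T cells. Ift20 encodes an intraflagellar transport protein that also moves cargo in cells without cilia. How many mice or cultures went into a library is not given in the sources used here.

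GBPs and IRGs are large GTPases that cells make in response to interferon-gamma, the cytokine of Th1 and NK cells. Binding of interferon-gamma to its receptor activates the receptor's kinases, and the signal turns on Irf1, whose product then helps to turn on the GTPase genes. The proteins load onto the membranes of vacuoles that hold bacteria or parasites and disrupt them. Within the IRGs, Irgm1 and Igtp (Irgm3) belong to the regulatory subfamily that sits on host membranes and keeps the effector subfamily inactive there, and Iigp1 (Irga6) is an effector. In T cells, these genes serve as a readout of interferon signaling, and Irgm1 is also known to limit death of CD4 T cells exposed to interferon-gamma.

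In the GENCODE M21 annotation of GRCm38, the members sit in clusters. Gbp7 (chr3:142530342-142550149), Gbp3 (chr3:142560026-142573209) and Gbp2 (chr3:142620602-142638008) lie on the plus strand of chromosome 3. Gbp8 (chr5:105014150-105139540), Gbp9 (chr5:105077630-105139539), Gbp4 (chr5:105115767-105139586) and Gbp6 (chr5:105270702-105293698) lie on the minus strand of chromosome 5. Irgm1 (chr11:48861968-48871683, minus) and Igtp (chr11:58199556-58207591, plus) are on chromosome 11. RefSeq promoters of build GRCm38.p6 were matched by symbol for 5 members, Gbp2, Gbp3, Gbp7, Igtp and Irgm1. Their last 150 bases before the RefSeq transcript start are shown because the same motif recurs in them, the interferon-stimulated response element (ISRE), which IRF proteins bind, and in some the gamma-activated site (GAS), another element of interferon-gamma responsive promoters. They are written in the direction of transcription, with matches to the ISRE letters GAAANNGAAA, or TTTCNNTTTC on the other strand, and to the GAS letters TTCNNNGAA, the same on both strands, in capitals. The regions are chr3:142620513-142620662 (plus) for Gbp2, chr3:142559894-142560043 (plus) for Gbp3, chr3:142530186-142530335 (plus) for Gbp7, chr11:58199406-58199555 (plus) for Igtp and chr11:48871421-48871570 (minus) for Irgm1.
Gbp2: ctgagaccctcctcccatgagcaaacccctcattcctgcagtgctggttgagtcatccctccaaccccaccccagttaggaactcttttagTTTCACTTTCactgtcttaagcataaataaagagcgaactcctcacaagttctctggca
Gbp3: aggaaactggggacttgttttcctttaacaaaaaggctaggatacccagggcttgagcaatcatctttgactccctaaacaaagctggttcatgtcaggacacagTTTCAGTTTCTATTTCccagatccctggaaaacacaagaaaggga
Gbp7: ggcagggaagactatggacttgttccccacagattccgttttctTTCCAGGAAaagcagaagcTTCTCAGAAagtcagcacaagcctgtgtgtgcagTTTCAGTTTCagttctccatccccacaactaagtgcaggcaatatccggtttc
Igtp: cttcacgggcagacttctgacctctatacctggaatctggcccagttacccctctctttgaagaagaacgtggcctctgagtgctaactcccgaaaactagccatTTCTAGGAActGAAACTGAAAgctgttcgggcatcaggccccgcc
Irgm1: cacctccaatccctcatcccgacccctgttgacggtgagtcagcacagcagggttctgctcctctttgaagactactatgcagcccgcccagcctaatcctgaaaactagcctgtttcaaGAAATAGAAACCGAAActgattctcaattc

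All 5 of these members held an ISRE match in the 250 bases before a transcript start, against 2.98% of the 32851 promoters in the table. A GAS match stood before Gbp7 and Igtp, against 7.02% of promoters, and ISRE and GAS together stand before 0.332% of promoters. The ISRE match of Gbp2 ran from 59 to 50 bases before the start. In Gbp3 a pair of ISRE matches overlapped, from 45 to 36 and from 39 to 30 bases before the start, and a further promoter listed for Gbp3 held neither motif. In Irgm1 a pair overlapped likewise, from 30 to 21 and from 24 to 15 bases before the start. Gbp7 had an ISRE match from 53 to 44 and GAS matches from 106 to 98 and from 87 to 79 bases before the start. Igtp had a GAS match from 45 to 37, and its ISRE match began 34 bases before the start and ended at 25. The starts are those of RefSeq, and the GENCODE spans given above begin at the same base only for Igtp. By those spans, Gbp2 and Irgm1 begin so far upstream that their ISRE matches lie inside the annotated gene and not before it. They are matches of letters, and binding was not measured.

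**Figure D1:**
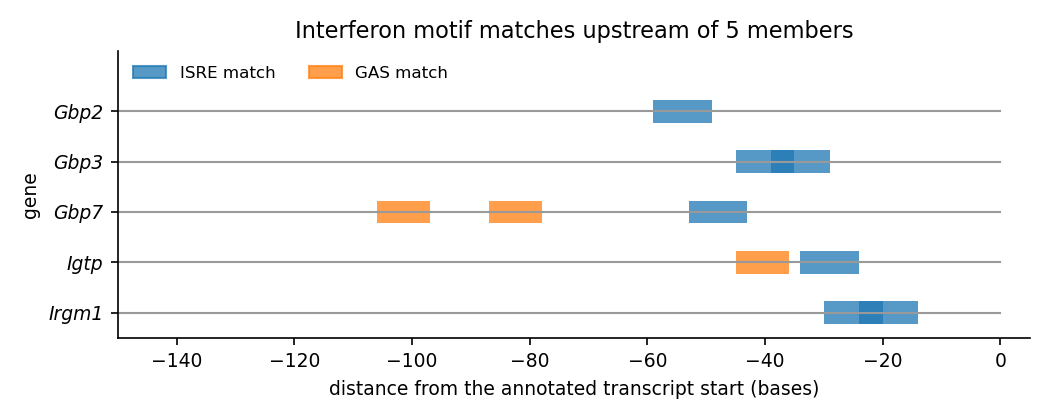
Positions of ISRE (blue) and GAS (orange) letter matches along the 150 bases before the RefSeq transcript start of 5 members, with the distance from the start in bases on the x axis. Each of the 5 genes has an ISRE match between 59 and 15 bases before the start, darker where matches overlap, and Gbp7 and Igtp also have GAS matches.

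The libraries differed in depth, which bears on every value. Expression was counted in UMIs (unique molecular identifiers), so that copies of 1 captured RNA count once. The cells kept had over 200 genes and a mitochondrial share below 15% of UMIs. They numbered 8031 in the unstimulated WT, 9903 in the stimulated WT and 13920 in the IFT20-KO library, the order in which values from the 3 libraries are given throughout. Their median depth was 4627, 12167 and 5014.5 UMIs per cell, out of 37133949, 116979076 and 106435143 UMIs in all. Pairs of libraries shared 114 to 197 cell barcodes. All 7 T cell markers were detected in every library, but some markers of other cells were too. The 6 B cell markers summed to 296, 186 and 198 counts per 1000000 UMIs (CPM), nearly all from Ighm (283, 143 and 153 CPM) and Cd74 (10.5, 42.9 and 44.4 CPM), while Ms4a1 had at most 1 UMI a library. The 7 myeloid markers summed to 81.9, 79.3 and 84.0 CPM, nearly all from Cst3 (79.5, 76.3 and 80.3 CPM), while Lyz2 had at most 1 UMI. Of the CD8 markers, Cd8b1 was at 28.6, 9.04 and 11.2 CPM and Cd8a at no more than 0.291 CPM. The part of such cells or of free RNA in the results was not tested. Summed cycling markers (Mki67, Top2a, Ccnb1, Cdk1) were at 10.4, 66.1 and 99.5 CPM. Ift20, the deleted gene, was at 64.4, 76.0 and 6.60 CPM, so the library labelled KO held 11.5-fold less Ift20 RNA than stimulated WT. With 1 library per condition there is no test, and every 95% interval, given in brackets, covers counting error only. Genotype cannot be told apart from the culture, capture and depth of a library. Nor can stimulation be told apart from 24 h in culture, as the unstimulated cells were labelled 0 h. The stimulation and the KO comparison share the stimulated WT library.

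The first question was how the family differed between WT cells stimulated for 24 h and unstimulated WT cells taken at 0 h. Over all cells it did not move as a group. Gbp2 was 5.31-fold higher, Iigp1, Igtp, Gbp3 and Gbp4 were 1.26-fold to 1.73-fold higher, and Gbp6, Irgm1, Gbp9, Gbp8 and Gbp7 were 1.42-fold to 4.15-fold lower. The 10 log2 ratios, stimulated over unstimulated, ran from −2.05 to 2.41 with a median of −0.087 (−0.33 to 0.13), and the median of all 13297 genes counted (10 or more UMIs in the WT libraries together) was −0.089. A total of 5 members were lower, where 53.0% of all genes were lower. Past 2-fold, 1 member was higher, where 19.3% of all genes were, and 3 were lower, where 23.0% of all genes were. Over all cells the members' counts were thus close to the background in each direction, and the values show their spread rather than a shift of the median. In the cells under 4056 UMIs, the stimulated WT median divided by 3, the values were higher. There the median was 0.87 (0.072 to 1.52), against 0.37 over all genes, and 7 members were higher, where 63.5% of all genes were. Past 2-fold, 5 members of these shallower cells were higher, where 29.1% of all genes were, and 1, Gbp7, was lower, where 12.4% were. The pooled cells differed in depth, with 925 unstimulated and 1414 stimulated cells under 2000 UMIs and 1843 and 887 from 2000 to under 4056. Under 2000 UMIs, Gbp2 (3.33), Igtp (2.92) and Iigp1 (1.83) were past 2-fold higher, and Gbp7 (−1.53) and Gbp8 (−1.002) past 2-fold lower. From 2000 to under 4056 UMIs, Gbp2 (2.63), Igtp (1.73) and Gbp4 (1.70) were past it higher and Gbp7 (−1.28) lower.

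The second question was how the stimulated IFT20-KO library differed from the stimulated WT library. Here all 10 members were lower, where 31.7% of 13504 genes were lower, counted by the same minimum. Iigp1 was 4.33-fold lower, Gbp6 2.55-fold, Irgm1 2.33-fold and Gbp2 2.30-fold. Igtp, Gbp4 and Gbp7 were 1.65-fold to 1.73-fold lower, Gbp3 1.44-fold, and Gbp8 and Gbp9 1.19-fold and 1.13-fold. The median log2 ratio, KO over WT, was −0.78 (−0.86 to −0.70), against 0.14 over all genes, which leaves −0.92 relative to the median gene. Beyond 1.5-fold, 7 members were lower, against 3.27% of all genes, and none was higher, against 13.4%. Beyond 2-fold, 4 were lower, against 1.67%.

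**Figure D2:**
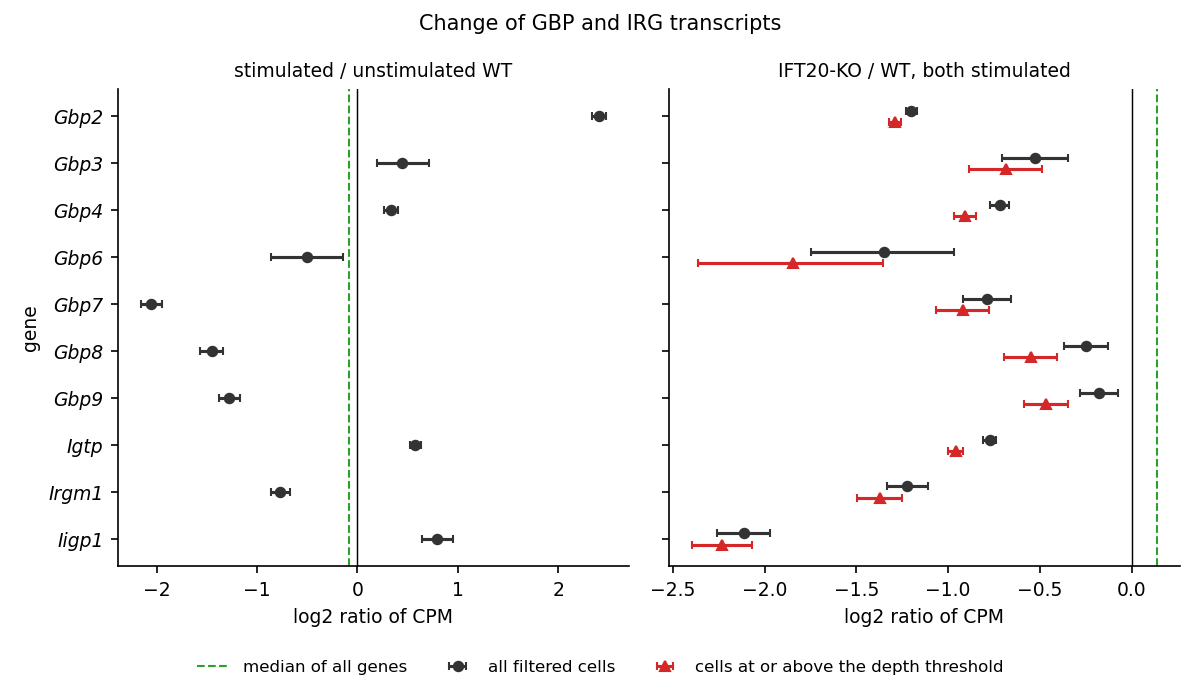
Log2 ratio of CPM for each member, stimulated over unstimulated WT (left) and IFT20-KO over WT, both stimulated (right), with 95% counting intervals, in all filtered cells (black) and, on the right, in cells of at least 4056 UMIs (red). The left panel spreads from −2.05 to 2.41 around the median of all genes (green, −0.089), and on the right every point lies below 0 and below the median of all genes (0.14).

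Gbp2, a GBP that carries a lipid anchor and gathers at parasite vacuoles, was the member with the largest difference between the WT libraries. Its level was 52.0 CPM (49.7 to 54.3) in unstimulated WT, 276 CPM (273 to 279) in stimulated WT and 120.0 CPM (118 to 122) in stimulated IFT20-KO. The KO level thus stood between the WT levels and outside both intervals. A UMI of Gbp2 was found in 17.3%, 56.2% and 38.2% of cells, and a cell with any held a mean of 1.39, 5.79 and 2.40 UMIs. Both the share of positive cells and the UMIs per positive cell were therefore highest after stimulation of WT cells. Neither was taken at equal depth, and stimulated WT cells were the deepest, at a median of 12167 UMIs. The median was 4627 UMIs in unstimulated WT and 5014.5 in stimulated IFT20-KO. Shares at equal depth are given below. Gbp2 took 13.8% of all UMIs of the 10 members in the unstimulated library, 47.4% in stimulated WT and 40.3% in stimulated IFT20-KO. With Igtp it took 40.6%, 73.5% and 70.0%, so sums over the members follow these genes.

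Of the other chromosome 3 genes, Gbp7, which acts on the Toxoplasma vacuole, took the opposite course on stimulation. It was at 49.5 CPM (47.3 to 51.8), 11.9 CPM (11.3 to 12.6) and 6.92 CPM (6.42 to 7.43). The stimulated to unstimulated ratio was −2.05 (−2.15 to −1.95) on the log2 scale and the KO to WT ratio −0.79 (−0.92 to −0.66). Gbp7 and Gbp2 lie in the same cluster and both have ISRE letters before their start, as printed above, yet their ratios on stimulation had opposite signs, and both were lower in the KO library. Gbp3, also found at parasite vacuoles, was low throughout, at 4.20 CPM (3.57 to 4.91), 5.74 CPM (5.31 to 6.19) and 3.98 CPM (3.61 to 4.38). For Gbp3 the unstimulated and KO intervals overlapped, and only stimulated WT stood above them.

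The chromosome 5 genes did not share a direction on stimulation either. Gbp4 was at 54.4 CPM (52.1 to 56.8), 68.5 CPM (67.0 to 70.0) and 41.6 CPM (40.4 to 42.8), highest in stimulated WT and lowest in the KO library. Gbp8 was at 30.9 CPM (29.1 to 32.7), 11.3 CPM (10.7 to 11.9) and 9.51 CPM (8.93 to 10.1). Gbp9, a vacuole-targeting GBP, was at 36.4 CPM (34.4 to 38.3), 15.01 CPM (14.3 to 15.7) and 13.3 CPM (12.6 to 14.0). On stimulation Gbp8 and Gbp9 were at −1.45 and −1.28 over all cells, but at −0.0082 (−0.27 to 0.25) and 0.0061 (−0.25 to 0.26) in the cells under 4056 UMIs. These pooled values cover unlike depths. Under 2000 UMIs, Gbp8 was at −1.002 (−1.39 to −0.61) and Gbp9 at −0.82 (−1.22 to −0.42). From 2000 to under 4056 UMIs they were at 0.00018 (−0.40 to 0.38) and −0.026 (−0.41 to 0.34). From 4056 to under 8000 UMIs they were at 0.14 (−0.17 to 0.43) and −0.059 (−0.35 to 0.22). With 382 unstimulated cells from 8000 to under 16000 UMIs, they were at −1.18 (−1.49 to −0.86) and −1.03 (−1.31 to −0.75). At 16000 or more, with 14 unstimulated cells, they were at −1.35 (−2.58 to 0.29) and −0.73 (−1.96 to 0.90). Over all cells, Gbp8 and Gbp9 had the smallest KO differences of the 10 members, −0.25 (−0.37 to −0.13) and −0.18 (−0.28 to −0.074). These too pool unlike depths. In the same 5 ranges, from the shallowest up, the KO ratio of Gbp8 was −1.39, −0.47, −1.07, −0.77 and −0.50. That of Gbp9 was −0.92, −0.22 (−0.56 to 0.14), −0.66, −0.69 and −0.44. Each was lower than the value over all cells. Gbp6, likewise found at vacuoles, was at 2.59 CPM (2.09 to 3.16), 1.82 CPM (1.58 to 2.08) and 0.714 CPM (0.563 to 0.894), from 96, 213 and 76 UMIs, the fewest of any member. The annotated spans of Gbp4, Gbp8 and Gbp9 overlap on the same strand and begin within a few bases of each other, so their reads could be assigned to one another or dropped. Gbp6 lies apart from them, but 70.7% of the 50-base windows of its transcripts also occur in other transcripts, mostly of Gm43302. The separate ratios of these 4 genes are therefore uncertain. For the members outside chromosome 5, 0.31% (Irgm1) to 12.7% (Gbp7) of windows were shared.

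Among the IRGs, the regulator Igtp had 102 CPM (98.3 to 105) in unstimulated WT, 152 CPM (149 to 154) in stimulated WT and 88.7 CPM (86.9 to 90.5) in stimulated IFT20-KO. Irgm1, the other regulator, had 35.3 CPM (33.4 to 37.2), 20.7 CPM (19.9 to 21.5) and 8.88 CPM (8.32 to 9.46) in the same order. Over all cells the pair had opposite signs on stimulation, with log2 ratios of 0.58 (0.53 to 0.63) and −0.77 (−0.87 to −0.67), and the KO library was the lowest for both. In cells under 4056 UMIs the ratio of Irgm1 was −0.057 (−0.33 to 0.22). Split by depth, it was positive only from 4056 to under 8000 UMIs, at 0.40 (0.15 to 0.64). It was −0.13 (−0.61 to 0.36) under 2000 UMIs and −0.43 (−0.85 to −0.028) from 2000 to under 4056. From 8000 to under 16000 UMIs it was −0.36 (−0.64 to −0.071), and −0.52 (−1.65 to 0.93) at 16000 or more. The effector Iigp1 had 11.01 CPM (9.97 to 12.1), 19.1 CPM (18.3 to 19.9) and 4.41 CPM (4.02 to 4.82), and its KO to WT ratio of −2.11 (−2.26 to −1.97) was the lowest of the 10. The KO level of Iigp1 was below the unstimulated level as well, with intervals apart. Across the family, the KO library gave the lowest of the 3 levels for 9 members, all but Gbp2, with the overlap for Gbp3 named above. The share of all genes with their lowest level in KO was not counted. For Gbp6, Gbp7, Gbp8, Gbp9 and Irgm1, which were lower after stimulation, that order only restates the KO to WT ratio. Except for its first bases, Igtp lies inside the annotated span of Irgm2 on the same strand (chr11:58199618-58222782). Of the windows of Igtp, 11.8% are shared with that gene. Reads of Igtp could therefore also be assigned to Irgm2 or dropped, which leaves its level and ratios uncertain.

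**Figure D3:**
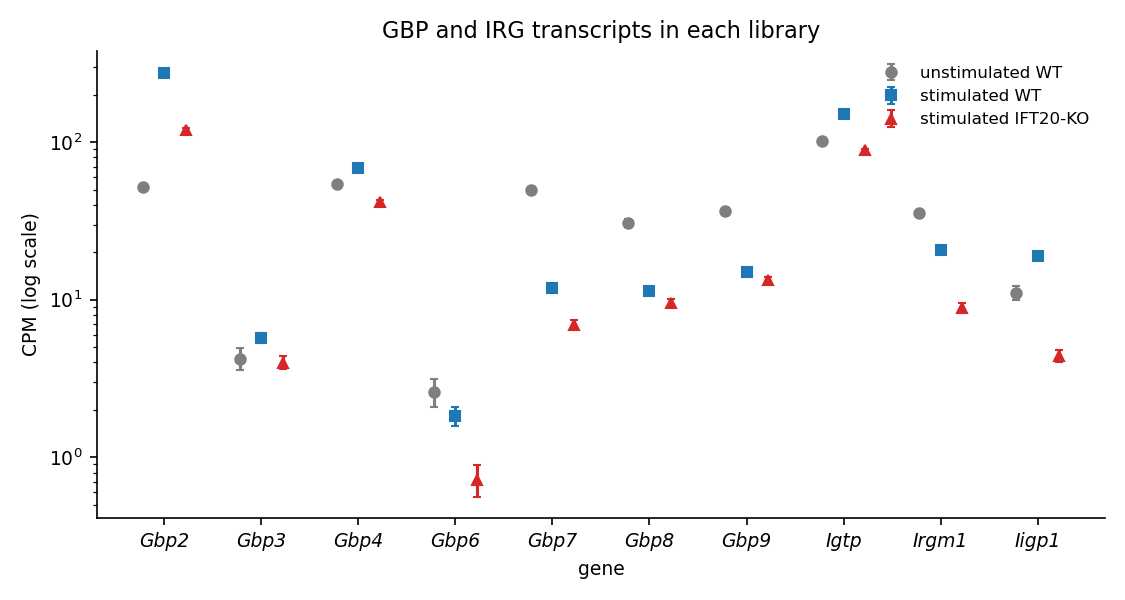
Level of each of the 10 members in CPM (log scale) in unstimulated WT, stimulated WT and stimulated KO cells, 1 library each, with exact Poisson 95% intervals that cover counting error only. The red triangles (KO) lie below the blue squares (stimulated WT) for all 10 genes, while the grey circles (unstimulated WT) lie above the squares for Gbp6, Gbp7, Gbp8, Gbp9 and Irgm1 and below them for the other 5.

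Summed over the 10 genes, the level was 378 CPM (371 to 384), 581 CPM (577 to 586) and 298 CPM (295 to 301). At least 1 UMI of any member was found in 69.8%, 81.7% and 70.8% of cells. Shares of positive cells depend on depth, so cells of at least 4056 UMIs, the stimulated WT median divided by 3, were also thinned to that number. At that equal depth, Gbp2 was found in 15.8% (14.9% to 16.9%), 38.8% (37.7% to 39.9%) and 25.4% (24.4% to 26.4%) of cells. Igtp was found in 26.6% (25.4% to 27.8%), 33.4% (32.3% to 34.5%) and 22.6% (21.6% to 23.6%). Iigp1 was found in 3.21%, 6.45% and 1.505%, and Irgm1 in 11.97%, 7.98% and 3.45%. The order of the libraries was for each of these 4 genes the order of the CPM. No cell type here is known to lack the members, so no floor for their free RNA could be set. The B cell gene Cd79a had a UMI in 0.374%, 0.333% and 0.187% of all kept cells. That was below the unthinned share of every member in each library (lowest 0.539%, Gbp6 in the KO library). Cd79a cannot count RNA freed from T cells, however, and other B cell markers were found in up to 61.8%, 59.3% and 49.3% of cells.

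The KO library held many shallow barcodes, since 52.0% of its cells had at least 4056 UMIs, against 76.8% in stimulated WT and 65.5% in unstimulated WT. In those deeper cells all 10 members were again lower in KO, where 39.5% of 13201 genes were lower. The median KO to WT ratio was −0.94 (−1.03 to −0.88), against 0.048 over all genes, with 8 members beyond 1.5-fold, against 4.15% of genes, and 4 beyond 2-fold, against 1.79%. Iigp1 was at −2.23 (−2.40 to −2.07), Gbp6 at −1.84 (−2.36 to −1.36), Irgm1 at −1.37 (−1.50 to −1.25) and Gbp2 at −1.29 (−1.32 to −1.25). Each member's ratio was further from 0 in the deeper cells than in all cells, most of all Gbp6, Gbp8 at −0.55 and Gbp9 at −0.47. In the cells under 4056 UMIs the 10 members were lower too, with a median of −1.14 (−1.35 to −0.80), where 55.4% of genes were lower. These shallower cells differed in depth, with 1414 WT and 1279 KO cells under 2000 UMIs. From 2000 to under 4056 UMIs there were 887 WT and 5397 KO cells.

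When cells were split into 5 ranges by their UMIs, a split chosen after the data were seen, the 10 members were lower in KO than in WT in every range, where 60.9%, 52.1%, 31.4%, 39.4% and 44.1% of all genes were lower. The median ratio was −1.34 under 2000 UMIs, −1.004 from 2000 to under 4056, −1.10 from 4056 to under 8000, −1.18 from 8000 to under 16000, and −0.95 at 16000 or more. The counting interval lay below 0 for 9, 8, 9, 10 and 10 members. The share of all genes with such an interval was not counted, so these counts have no background. The summed level in stimulated WT was 1227, 1085, 1336, 645 and 422 CPM across these ranges, so it was lower in the deepest cells, which held the most RNA. The KO library was likewise lowest in its deepest cells, at 504, 523, 529, 249.8 and 203 CPM. In the unstimulated library, the level was 626, 424, 365 and 335 CPM in the first 4 ranges, and the last held only 14 cells. Within each of the first 4 ranges stimulated WT cells had more summed member RNA per UMI than unstimulated cells, with log2 ratios of 0.97, 1.36, 1.87 and 0.95. Not every member followed the sum. By point value, Gbp2, Gbp3, Gbp4, Gbp6, Igtp and Iigp1 were higher in each of these ranges. Gbp7 (−1.53, −1.28, −1.01 and −1.75) and Gbp9 were lower in each, and Gbp8 and Irgm1 went both ways. The median of all genes was not computed within these ranges. The summed ratio of 1.87 from 4056 to under 8000 UMIs sets 544 stimulated cells against 4867 unstimulated cells, as most stimulated cells were deeper.

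**Figure D4:**
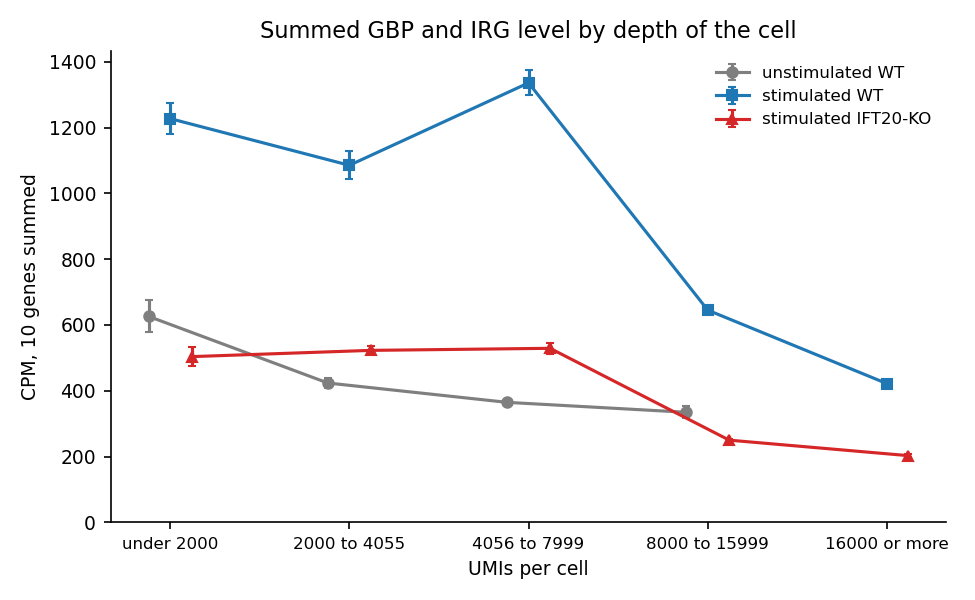
Summed level of the 10 members in CPM by the cell's UMI count, in 5 ranges, for the 3 libraries, with 95% counting intervals (the last range holds only 14 unstimulated cells and is left out for that library). Stimulated WT lies above IFT20-KO in every range, at 1336 against 529 CPM from 4056 to under 8000 UMIs and 422 against 203 CPM in the deepest cells, and both are lower in the deeper ranges.

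Member RNA was spread unevenly over cells, most of all after stimulation. At 4056 UMIs per cell, a cell had a mean of 1.48, 2.60 and 1.17 UMIs of the 10 members. Yet the share of cells with none was 32.2%, 40.2% and 50.5%. At this thinned depth the stimulated WT library thus held more negative cells than the unstimulated one, in spite of its higher mean. Thinning took more from stimulated WT cells, whose median before it was 13952 UMIs, against 5233 in unstimulated WT. Over all kept cells without thinning, a member UMI was found in 69.8% of unstimulated and 81.7% of stimulated WT cells. At equal depth the stimulated WT library also held the most cells with 5 or more member UMIs, 18.5%, against 5.11% in unstimulated WT and 5.74% in the KO library. The 10% of cells with the most held 39.4%, 51.0% and 51.9% of the member UMIs. UMIs of at least 3 different members were found in 11.6%, 17.7% and 6.56% of cells. By variance over mean, the summed count stood at 2.87, 7.10 and 3.99, where a value of 1 would mean counting noise alone.

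Single members differed in how patchy they were. Spread beyond counting noise, as variance minus mean over the squared mean, was 0.070 for the median gene of the unstimulated library. It was 0.116 in stimulated WT and 0.131 in the KO library. That median covers only genes with a mean of at least 0.05 UMIs per cell. Several members lay below this mean, among them Iigp1 in the unstimulated (0.043) and KO (0.017) libraries, so their values are not matched to it. Iigp1 was at 15.8, 7.17 and 10.9, the highest of the 10 in each library by this measure. By variance over mean it stood at 1.68, 1.62 and 1.18, below Gbp2 at 2.21, 5.87 and 3.75. In spread beyond counting noise, Gbp2 was at 5.66, 3.78 and 5.40, and Igtp at 2.31, 2.12 and 2.40. Gbp8 was at 0.161 in unstimulated WT, near the median gene, and at 2.33 and 1.74 after stimulation. Gbp6, with few UMIs, gave no spread above counting noise in the KO library.

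Members were found in the same cells more often than their separate shares would give. Of the 45 pairs, 35, 36 and 22 had at least 10 expected double-positive cells, and the observed number was above the expected one for all of them. The median ratio of observed to expected was 1.35 (range 1.06 to 2.50), 2.07 (1.62 to 3.28) and 1.79 (1.58 to 2.55). The counting interval lay above 1 for 30, 35 and 22 pairs. In stimulated WT, Irgm1 and Iigp1, a regulator and an effector, were together in 121 cells where 39.1 were expected. Gbp2 and Igtp were together in 1596 cells where 985 were expected. In the unstimulated library the 5 pairs whose interval reached 1 were Gbp9 with Gbp3, with Gbp8 and with Igtp, and Igtp with Gbp6 and with Gbp8. The lowest was Gbp8 with Igtp, at 163 cells where 154 were expected, whereas Gbp8 with Gbp2 stood at 130 cells where 91.6 were expected. These are descriptions over cells of 1 library, which share depth and culture. The ratio was not computed for pairs of other genes, so it is not shown to be particular to the family.

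To see which cells held member RNA, the deeper cells, thinned to 4056 UMIs, were split by whether they had a UMI of another gene. Irf1, a transcription factor of the pathway, split stimulated WT into 2456 positive cells with a summed member level of 1075 CPM (1055 to 1096) and 5146 negative cells with 434 CPM (425 to 443). In the KO library the levels were 494 CPM in Irf1-positive and 235 CPM in Irf1-negative cells, and in unstimulated WT 413 and 321 CPM. All 10 members were higher in Irf1-positive cells in each library, by 1.03 to 1.43 on the log2 scale in stimulated WT. The share of all genes that were higher or lower was not counted for this split or for those below. Their counts of members therefore have no background and are not shown to be particular to the family. Such counts also take in members whose own intervals covered both directions, several with few UMIs. The KO to WT ratio of the sum was −1.12 (−1.18 to −1.07) among Irf1-positive cells and −0.89 (−0.93 to −0.84) among Irf1-negative cells.

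Il7r, the IL-7 receptor of naive and memory cells, gave a wide split in the stimulated libraries. In stimulated WT the 130 positive cells had 1343 CPM (1246 to 1445) of the members and the 7472 negative cells 629 CPM (620 to 638), and 9 members were higher in the positive cells, by 0.83 to 1.93, while Gbp6 had 0 UMIs in them. In the KO library the levels were 620.2 and 284 CPM, with all 10 members higher. In its 128 positive cells, however, Gbp3, Gbp6, Gbp7, Gbp8 and Iigp1 had 2 to 8 UMIs, with intervals reaching below 0. In unstimulated WT they were 365 and 363 CPM, with 4 members higher and 6 lower. Il2, the growth factor of newly activated T cells, went the other way, with 336 CPM (316 to 356) in 829 positive cells and 678 CPM (669 to 688) in the negative cells of stimulated WT, and each of the 10 members lower in the positive cells. In the KO library, Il2-positive cells had 202 CPM and negative cells 299 CPM, with 9 members lower.

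Tbx21, the Th1 factor T-bet, was found in 317 of the deeper stimulated WT cells, which had 1363 CPM of the members against 610 CPM in the cells without it. In the KO library 37 such cells had 806 CPM against 287 CPM. Isg15, a gene of the type I interferon response, gave 1285 and 618 CPM in stimulated WT, 473 and 287 CPM in the KO library, and 550.2 and 335 CPM in unstimulated WT. Mki67, a marker of cycling cells, gave 697 CPM (630 to 770) and 640.0 CPM (631 to 649) in stimulated WT, a log2 ratio of 0.12 (−0.025 to 0.27), and 386 and 286 CPM in the KO library. Within the KO library 7 members were higher in the Mki67-positive cells and 3, Gbp3, Gbp8 and Iigp1, were lower. Those 3 had 3 to 5 UMIs in the positive cells, with intervals that covered both directions. The KO to WT ratio within these classes, with or without Tbx21, Isg15, Mki67, Il7r, Irf1 or Il2, ran from −0.73 to −1.44. Split by genes added after the data were seen, the cells with Irf8 had 994 CPM against 577 CPM without it in stimulated WT. In the KO library they had 337 against 286 CPM, with 8 members higher and 2 lower. There only Igtp had an interval of a single sign (0.17 to 0.59). The KO to WT ratio of the sum was −1.56 among cells with Irf8 and −1.01 among those without. Cells with Il2ra had 682 against 606 CPM in stimulated WT and 325 against 261 CPM in the KO library. All of these genes come from the same cells as the members, and only the thinned depth was equal between classes. The UMIs of the cells before thinning were not compared between classes. In stimulated WT the summed level was 1336 CPM from 4056 to under 8000 UMIs and 422 CPM at 16000 or more. The part of cell depth in these splits, and that of these genes in the KO difference, was not tested.

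**Figure D5:**
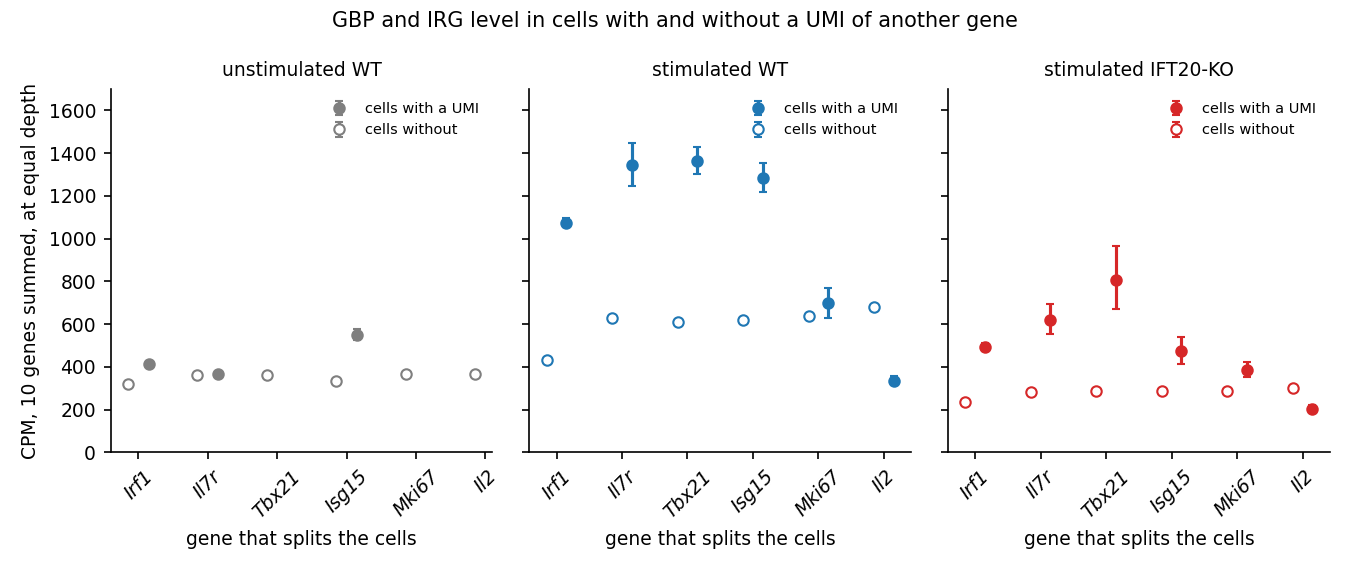
Summed level of the 10 members (CPM, cells thinned to 4056 UMIs) in cells with (filled) and without (open) a UMI of the gene on the x axis, in each library, with 95% counting intervals and classes of under 20 cells left out. In stimulated WT, filled points for Irf1, Il7r, Tbx21 and Isg15 lie between 1075 and 1363 CPM and open points between 434 and 629 CPM, while for Il2 the filled point (336 CPM) is below the open one (678 CPM).

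Across the 7602 deeper cells of stimulated WT, the genes whose count was most like the summed members included Samhd1 (Pearson r = 0.56), a nucleotide-depleting antiviral enzyme, Ifi47 (0.52), another IRG, Ly6a (0.48), which encodes Sca-1, and AW112010 (0.45). Over 7244 KO cells they included Samhd1 (0.39), Igfbp4 (0.32), Ms4a4b (0.32) and Ifi47 (0.30). Over 5263 unstimulated cells they included Tgtp2 (0.25), Ifi47 (0.24), Ly6a (0.21) and Rtp4 (0.18). Ifi47 was thus among them in each library. The r values are descriptions over cells at equal depth, out of 5971 to 6366 genes ranked. The most opposed genes in stimulated WT were Hspd1 (−0.38), a mitochondrial chaperonin, Srgn (−0.32), Mif (−0.31), Ncl (−0.31), a nucleolar protein, and Eif1 (−0.31). In unstimulated cells the most opposed gene was Igfbp4, at −0.070.

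Upstream of the GTPases, the ligand itself was scarce. Ifng had 8, 347 and 31 UMIs, found in 7, 36 and 14 cells, and its level was 0.215, 2.97 and 0.291 CPM. The KO library thus had 10.2-fold less Ifng RNA per UMI than stimulated WT (log2 ratio −3.35, −3.93 to −2.82), and as the 36 WT cells held a mean of 9.64 UMIs each, that ratio rests on few cells. The receptor chains Ifngr1 (122, 24.0 and 31.8 CPM) and Ifngr2 (43.7, 17.8 and 20.9 CPM) were lower after stimulation. Over all cells they were higher in KO than in stimulated WT, at 0.40 (0.33 to 0.48) and 0.23, where the median of all genes was 0.14. For Ifngr1 the sign of the KO ratio turned with depth, at −0.35 (−0.53 to −0.16) in cells under 4056 UMIs and 0.28 (0.20 to 0.36) in deeper cells. Those deeper cells were of unlike depth. Ifngr1 was at −0.0097 (−0.30 to 0.28) from 4056 to under 8000 UMIs, 0.23 from 8000 to under 16000, and 0.22 at 16000 or more. The kinase Jak1 was at 344, 177 and 212 CPM and Jak2 at 15.2, 23.0 and 24.3 CPM, with KO ratios over all cells of 0.25 and 0.081. Jak2 thus lay below the median of all genes, and it was at −0.070 (−0.16 to 0.017) in the deeper cells. The factor Irf1 was at 191, 117 and 69.7 CPM and Socs1, the feedback inhibitor, was at 72.7, 91.7 and 72.2 CPM. Of these genes, Ifng aside, those lower in KO over all cells were Irf1 (−0.74, −0.78 to −0.70) and Socs1 (−0.34, −0.39 to −0.30), both of which are themselves induced by interferon-gamma.

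Of the whole list of 22 interferon-gamma signaling genes, 15 were lower in KO, where 31.7% of all genes were, with a median of −0.097 (−0.28 to 0.014). Among those of at least 10 CPM in either library, the limit used for naming, Tbx21 at −3.19 and Irf8 at −1.41 were at the low end, and Ifngr1 at 0.40, Ptpn11 at 0.29 and Pias1 at 0.26 were at the high end. On stimulation 12 of the 22 were higher, where 47.0% of all genes were, and 10 were lower, where 53.0% were. At that limit the highest were Il12rb1 at 5.205, Tbx21 at 4.36 and Irf8 at 3.996. The lowest were Il18r1 at −5.93 and Socs3 at −3.22. Interferon-gamma targets outside the GTPase families, such as antigen presentation genes, were lower in KO for 19 of 20 measured, against the same 31.7%, with a median of −0.37 (−0.40 to −0.28). Among the 17 targets of at least 10 CPM, Irf8, Irf1 and Psmb9 (−0.69), an immunoproteasome subunit, were the lowest and Cd274, which encodes PD-L1, the highest at 0.15. Irf1, Irf8 and Socs1 are among the genes that stand in both lists. On stimulation 10 of 19 targets were higher, where 47.0% of all genes were, and 9 were lower, where 53.0% were. These counts were near the background.

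The other GBPs and IRGs did not all follow the members. Of 14 measured, 12 were lower in KO, where 31.7% of all genes were, with a median of −0.31 (−0.96 to 0.11), and 11 were lower on stimulation, where 53.0% of all genes were, with a median of −1.66 (−2.24 to −0.82). Gbp5, which carries a lipid anchor and neighbours Gbp7, was at 5.92, 40.8 and 39.8 CPM. Its ratio was 2.78 on stimulation, above that of Gbp2, yet −0.034 (−0.094 to 0.026) between the stimulated libraries, so among all cells the KO level could not be told from WT by counting error. Within each depth class Gbp5 was lower in KO, at −0.84 (−0.97 to −0.72) in cells under 4056 UMIs. In the deeper cells it was at −0.29 (−0.37 to −0.22), closer to 0 than for any member. Neither class was matched in depth between the libraries. In the 5 UMI ranges the ratio of Gbp5 was −0.96, −0.75, −0.31, −0.59 and −0.19, each with an interval below 0. Gbp10 was at 2.61, 2.78 and 0.864 CPM, a KO ratio of −1.68, though 84.1% of its windows are shared, mostly with Gbp6. Ifi47 was at 247, 276 and 195 CPM, Irgm2 at 13.4, 8.39 and 5.11 CPM, and the near-identical Tgtp1 and Tgtp2 at 17.8, 4.65 and 1.49 CPM and at 52.6, 10.8 and 3.70 CPM. Each of these IRGs was lower in KO than in stimulated WT. The IRG-like genes 9930111J21Rik1 (10.3, 0.650 and 0.573 CPM) and 9930111J21Rik2 (63.9, 4.68 and 5.37 CPM), which share much of their sequence with each other, were far lower in both stimulated libraries than in unstimulated WT.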

How the data were processed

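The authors aligned reads to mm10 and called cells with Cell Ranger, 3.1.0 per the file headers, and deposited raw counts, the UMIs of each gene in each barcode. The labels name a 5′ kit, the study's methods a 3′ kit. Of 8253, 10320 and 13932 barcodes, the filter named in the report, that of the study's methods, left out 222, 417 and 12. UMIs were summed per library and divided by the total (CPM), with exact Poisson intervals, exact binomial intervals for ratios and Clopper-Pearson intervals for shares. A gene at 0 was set to 3 counts. Genes needed at least 10 UMIs over both libraries. Counts were not divided by transcript length, since a UMI stands for 1 captured transcript end. A list's median interval is the median of its genes' interval ends. Shares said to be at equal depth, and the spread, co-detection and splits of cells, used deeper cells thinned at random to 4056 UMIs (seed 1). Other shares and the UMIs per positive cell were not thinned. Likeness, in the thinned cells, was Pearson's r of log2(count + 1) over genes found in at least 5% of cells. Doublets were not removed. Calculations were tested on simulated data.

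The members, gene lists and named genes were chosen with earlier results of these data known. Named were the members, other GBP and IRG genes, signaling genes, the 3 highest and lowest of each list with at least 10 CPM, and the 5 most alike genes, some of which are not reported here. Genes named outside this rule, namely the most opposed genes, Gm43302 and the single markers of other cells, were chosen after their values were seen. Software was Python 3.11.15, numpy 2.4.6, scipy 1.17.1, pandas 2.3.3 and matplotlib 3.10.9. Of the gene identifiers, 31011 are in GENCODE M21 and 30541 have the same symbol there. The alternatives were other scalings, filters, UMI minimums and depths.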

Additional observations from a re-analysis of the deposited data

How the results depend on the processing

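No paired analysis was possible because each condition has 1 library and the labels give no replicate numbers, so no replicate could be left out either. For the KO comparison the 10 members were lower under every alternative, with 0 of 80 values turned. Its median of −0.78 was −0.95 with median-ratio scaling, −1.41 as UMIs per cell, −0.88 thinned to 1000 UMIs, −0.94 in cells of at least 4056 UMIs, −1.14 below that, −0.91 as a mean, and, in the 5 UMI ranges added after seeing the data, −1.34, −1.004, −1.10, −1.18 and −0.95. In the deeper cells it was −1.19 as UMIs per cell. The median of all genes was −0.49 as UMIs per cell, and −0.21 in the deeper cells. Relative to it the members stood at −0.92 and −0.99. These equal the values of the main scaling by construction, since the scalings differ only by a constant per library.

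The stimulation comparison depended on the scaling and on the depth of the cells. Its median of −0.087 was 0.23 as the mean per-cell fraction, 1.27 as UMIs per cell, 0.33 thinned to 1000 UMIs and, added for the median and the counts after seeing the data, 0.87 in cells under 4056 UMIs. Members over 2-fold higher numbered 3, 5, 2 and 5 under these, in place of 1, and those over 2-fold lower 1, 0, 1 and 1, in place of 3. As UMIs per cell, which keep the deeper library's excess, the ratios of Gbp6 (0.85), Gbp9 (0.077) and Irgm1 (0.58) turned positive, where the median of all genes was 1.26, so relative to it these stayed lower. In cells under 4056 UMIs Gbp6 (0.72, −0.15 to 1.60) and Gbp9 (0.0061) turned positive, which makes 5 of the 80 values in all. Split further by depth, Gbp9 was at −0.82 under 2000 UMIs and −0.026 from 2000 to under 4056. Gbp6, Gbp3 and Ifng are limited by their few UMIs.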

Other observations

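Of the type I interferon genes, 41 of 44 measured were lower after stimulation, where 53.0% of all genes were, with a median of −2.41 (−2.61 to −2.07). Among those of at least 10 CPM in either library, Rtp4 at −6.53, Irf7, the factor that amplifies type I interferon, at −5.76 and Ifi213 at −5.21 were the lowest, and Phf11b at 0.48 and Bst2 (tetherin) at 0.26 the highest. Between the stimulated libraries 28 of 41 were lower in KO, where 31.7% of all genes were, with a median of −0.24 (−0.45 to −0.11). Among the 18 of at least 10 CPM, the lowest were Isg15 at −1.30 and Zbp1, a sensor of nucleic acids, at −0.93, and the highest was Slfn8 at 0.45. Factors that load GBPs and IRGs onto membranes, by prenylation or by ATG8 conjugation, had KO ratios of −0.11 to 0.48 and a median of 0.055 (−0.029 to 0.14) over 15 genes, with none beyond 1.5-fold. On stimulation Gabarapl1, an ATG8 protein, was at 3.72 and the CaaX protease Rce1 at 0.91, and the median was 0.070.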
